A study of Mus musculus with 4 samples.

Results

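Intermediate filaments are the rope-like polymers that give a cell its resistance to stretch, and lamins are the members of the same protein family that form the meshwork beneath the nuclear envelope. Skeletal muscle builds its cytoplasmic filaments mainly from desmin, which links the Z-discs of neighbouring myofibrils, whereas vimentin and nestin are known from progenitor cells and regenerating fibres. Synemin and syncoilin join desmin filaments to the dystrophin complex, plectin cross-links filaments to other structures, and lamin A/C and the B-type lamins line the nucleus. The 9 genes described here are Des, Vim, Nes, Synm, Sync, Plec, Lmna, Lmnb1 and Lmnb2, taken by symbol for these roles, with earlier results of these data known. Each matched 1 row, out of 21264 genes in the deposited table.

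The 4 RNA sequencing libraries come from mouse satellite cells, which are the resident muscle stem cells. The cells arose from a transplant and were then isolated from the host. All 4 belong to 1 group. The donor cells are of the iPAX3 line, in which Pax3 induction makes myogenic progenitors from pluripotent cells, and all carry NICD3 overexpression, the active intracellular domain of the Notch3 receptor. The age and strain of the hosts, the number of animals behind a library and any pooling are not stated in the labels. Cells without NICD3 are not analysed here, so genes were compared with each other within libraries and no effect of Notch3 was measured. Whether the replicates are separate animals is not stated, so their spread may be technical.

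Depth was 12544138 to 13302916 reads per library, and 1 read was worth 0.0752 to 0.0797 CPM (counts per 1000000 reads counted). All 9 markers of the labelled satellite cells were at 1 CPM or more in every library, as were 53.6% of all genes in the table. The same held for all 10 fibre, 6 committed myoblast, 9 endothelial and 7 cycling cell markers, so this count does not single out satellite cells. In the satellite cell list, Pax7, the transcription factor that defines satellite cells, had 138, 142, 118 and 120.0 CPM in replicates 1 to 4. The libraries differed in composition. Mitochondrially encoded genes took 0.533 to 1.82% of reads, lowest in replicate 1 and highest in replicate 4. Across 9195 genes, a gene's deviation from its mean over libraries correlated with the GC content of its transcript at a Spearman rho of 0.435 in replicate 1 and -0.555 in replicate 4, a description over genes of the same libraries. Values for replicates are given in the order 1 to 4, and ± is the SD over n = 4 libraries throughout.

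All 9 genes had reads in every library, over a graded range of levels. Lmna, Vim, Plec and Des had mean levels of 304 to 935 CPM, Nes, Sync and Lmnb2 of 44.1 to 115 CPM, and Lmnb1 and Synm of 12.7 and 10.7 CPM. All 9 reached 1 CPM in all 4 libraries, as did 53.6% of all genes in the table. The median of their mean levels was 115 CPM, beside 4.83 CPM over all genes. Together they took 0.302% of reads in replicate 1 (95% Wilson interval 0.299 to 0.305), 0.293% in replicate 2 (0.290 to 0.296), 0.237% in replicate 3 (0.234 to 0.239) and 0.182% in replicate 4 (0.180 to 0.185). Reads amplified from few cells are not independent molecules, so these intervals cover counting error only.

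**Figure D1:**
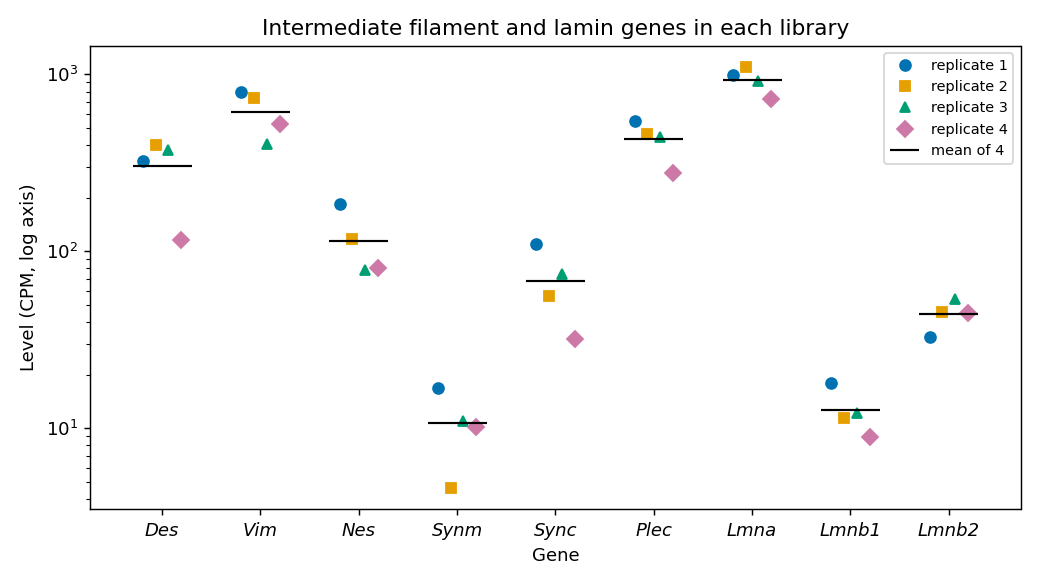
Level of each gene in CPM (log axis) in the 4 libraries, with symbols for replicates and a line at the mean. Lmna lies highest at 729 to 1101 CPM, Synm and Lmnb1 lie lowest, and the replicate 4 value of Des, 116 CPM, sits below its other 3 values.

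Among Des, Vim, Nes and Synm, vimentin was the most abundant per kb of summed exon in 3 of 4 libraries, and in 4 of 4 with coding length, with the longest transcript's length or without division by length. Vim (chromosome 2, 13573927 to 13582826, GENCODE M21 on GRCm38), a type III filament gene of mesenchymal and progenitor cells, had 799, 732, 406 and 525 CPM (616 ± 182 CPM). Its level was higher in replicates 1 and 2 than in 3 and 4. Des (chromosome 1, 75360329 to 75368579), the muscle type III filament gene, had 324, 400.2, 375 and 116 CPM (304 ± 129 CPM). The first 3 libraries lay close together and replicate 4 was lower. Without replicate 4 the SD of Des on the log2(CPM + 1) scale was 0.16, against 0.83 with it.

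Vimentin and desmin are close relatives, so the coding sequences were compared to see whether reads of one could be counted for the other. Over 1371 aligned coding bases they were 71.0% identical. The longest identical run between the coding sequences of Des and Vim was 18 bases. How long the reads were, and how reads that fit several places were counted, is not stated in the labels.

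Per kb of summed exon, Des minus Vim was -0.96, -0.53, 0.22 and -1.81 on the log2(CPM per kb + 1) scale. Desmin was the lower in replicates 1, 2 and 4 and, with this length only, the higher in replicate 3. The mean difference of -0.77 ± 0.85 was smaller than its own spread (exact two-sided sign-flip permutation test, p = 0.25, adjusted 0.25 over 12 gene pairs, n = 4). With coding length it was -1.12, with the longest transcript's length -1.16 and without division by length -1.11, negative in 4 of 4 libraries each time (exact p = 0.125, n = 4). Without replicate 4 it was -0.42 per kb of summed exon. As a share of the summed CPM per kb of Des, Vim, Nes and Synm, Vim made up 59.0, 55.2, 43.0 and 71.2%, and Des 30.2, 38.1, 50.1 and 19.9%. The vimentin to desmin ratio per kb of summed exon thus ran from 0.858 in replicate 3 to 3.58 in replicate 4. These ratios are not corrected for the GC trend, and the transcripts of Vim and Des hold 46.5 and 56.5% GC. With the correction given below, the replicate 4 deviation on the log2(CPM + 1) scale was -0.83 instead of -1.23 for Des. For Vim it was -0.30 instead of -0.18.

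Nestin was present at a lower level. Nes (chromosome 3, 87971078 to 87980451), a filament gene of progenitor cells that co-assembles with vimentin or desmin, had 185, 117, 78.4 and 80.3 CPM (115 ± 49.6 CPM). Replicate 1 was the highest, and replicates 3 and 4 lay together. On the log2(CPM per kb + 1) scale, Des exceeded Nes by 2.05 ± 0.79 and Vim exceeded Nes by 2.82 ± 0.26, each in 4 of 4 libraries (exact sign-flip p = 0.125, adjusted 0.136, n = 4). That p is the smallest that 4 libraries allow, so no pair could pass 0.05. The sizes depend on the length used, and with coding length they were 3.27 and 4.39, and without division by length 1.34 and 2.45. The Vim to Nes difference varied less between libraries than the Des to Nes difference, with ranges of 2.51 to 3.05 and 1.24 to 2.93.

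Vimentin and nestin are also expressed by endothelial cells, and the sum of 9 endothelial markers varied alongside them, though not every marker did. The summed endothelial markers had 185, 169, 57.6 and 72.4 CPM, higher in replicates 1 and 2 as Vim was. All 9 were at 1 CPM or more in every library, as were 53.6% of all genes, and the defining marker Pecam1 had 34.7, 25.2, 4.06 and 10.6 CPM. Of the 9, 7 were highest in replicate 1 and 2 in replicate 2, beside 26.4% of all genes of at least 10 CPM with their maximum in replicate 1. Only 5 of these 9 markers averaged at least 10 CPM, so the markers and that background are unlike sets. Tek went another way, with 19.5, 32.7, 27.3 and 30.3 CPM, lowest in replicate 1. The summed mural cell markers, another vimentin-expressing type, had 1559, 559, 819 and 878 CPM, with 7 of 8 at 1 CPM or more in every library. The largest part of it was Acta2, at 1143, 287, 483 and 447 CPM, while the contractile marker Tagln was at 0.153 to 0.625 CPM. The remaining mural markers had means of 171 (Rgs5), 104 (Pdgfrb), 34.4 (Cspg4), 26.4 (Abcc9), 18.2 (Kcnj8) and 9.08 CPM (Myh11). Of other vimentin-expressing types, the 7 fibro-adipogenic markers summed to 1429, 1792, 2112 and 1919 CPM, nearly all of it Dpt (mean 1118 CPM) and Col1a1 (663 CPM), with 5 at 1 CPM or more in every library and the defining marker Pdgfra at 0 to 2.30 CPM. The 8 macrophage markers summed to 23.1, 154, 69.4 and 149 CPM (5 of 8), and the 5 tendon markers to 10.2, 26.5, 248 and 20.6 CPM (4 of 5). The part of these cells in the Vim and Nes values was not tested. In bulk RNA, fewer cells of a type and less RNA per cell cannot be told apart.

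For desmin the muscle markers were set beside it. The mean log2(CPM + 1) of 10 fibre genes was 5.24, 6.41, 6.61 and 5.76, lowest in replicate 1, while Des was lowest in replicate 4. The 6 markers of committed myoblasts averaged 3.48, 4.60, 5.34 and 4.61, also lowest in replicate 1. Single genes differed: 7 of the 10 fibre genes and 4 of the 6 committed myoblast genes were lowest in replicate 1. Ckm, Tnnt3, Actn3 and Myod1 were lowest in replicate 4, as Des was. These 3 of 10 fibre genes and 1 of 6 committed myoblast genes do not exceed the background. Of all genes of at least 10 CPM, 31.3% were lowest in replicate 4. That average was reached by 9 of the 10 fibre genes and 5 of the 6 committed myoblast genes. Myog, a transcription factor of differentiating myoblasts, had 26.9, 93.8, 245 and 65.8 CPM, and skeletal actin Acta1 had 455, 1086, 1095 and 489 CPM. Ckm, muscle creatine kinase, had 26.6, 49.8, 43.8 and 13.3 CPM, and Actn3, a fast-fibre Z-disc gene, 563, 567, 613 and 417 CPM. The 9 satellite cell markers averaged 7.90, 8.04, 8.12 and 7.90.

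**Figure D2:**
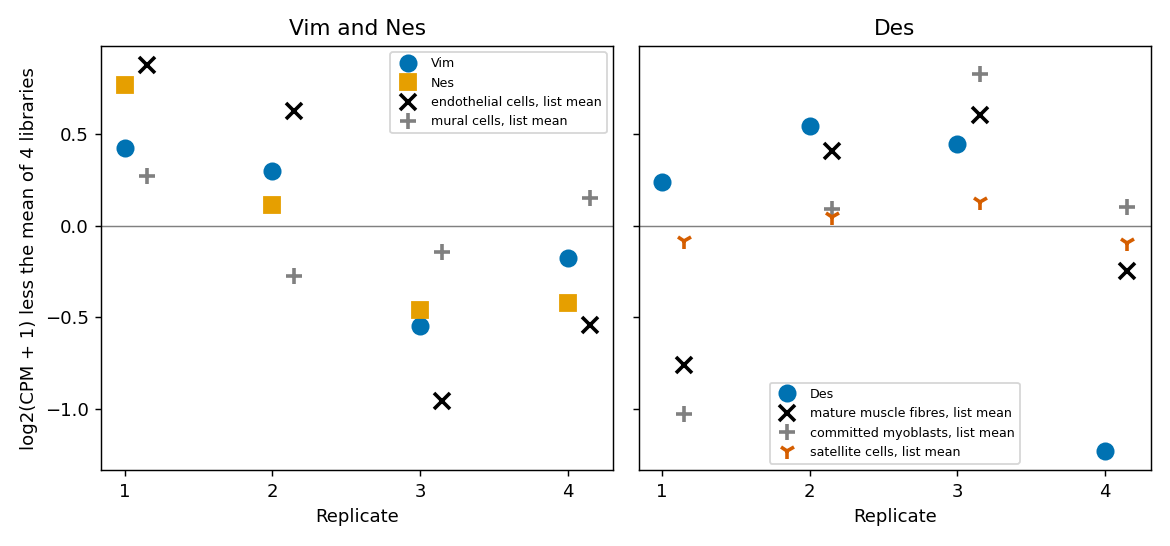
Deviation of log2(CPM + 1) from its mean over the 4 libraries for Vim and Nes beside endothelial and mural marker lists (left), and for Des beside fibre, committed myoblast and satellite cell lists (right). Vim, Nes and the endothelial list lie above 0 in replicates 1 and 2 and below 0 in replicates 3 and 4, and Des lies at -1.23 in replicate 4.

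The genes that tie desmin filaments to the membrane and to each other differed widely in level. Synm (chromosome 7, 67730160 to 67759742), synemin, a filament protein that cannot assemble without a partner such as desmin or vimentin, had 17.0, 4.59, 11.0 and 10.2 CPM (10.7 ± 5.07 CPM). These are 217, 61, 144 and 128 reads, with replicate 2 the lowest. Sync (chromosome 4, 129287617 to 129308559), syncoilin, which binds desmin and the dystrobrevin of the dystrophin complex, had 110, 56.1, 74.9 and 32.1 CPM (68.3 ± 33.0 CPM). Replicate 1 was the highest and replicate 4 the lowest.

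Syncoilin's value carries an uncertainty of its own. Of its summed exon length, 27.3% is shared with exons of Rbbp4, a histone-binding gene on the opposite strand, which had 174, 288, 170 and 391 CPM. The labels give no strand setting for the counting, so reads in the 782 shared bases cannot be told apart. On the log2(CPM per kb + 1) scale Synm minus Sync was -3.66, -3.71, -3.51 and -2.42 (mean -3.32 ± 0.61, 4 of 4 libraries, exact sign-flip p = 0.125, adjusted 0.136, n = 4). Des exceeded Synm by 5.02 ± 0.97 and Nes exceeded Synm by 2.97 ± 0.55 on the same scale, each in 4 of 4 libraries.

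Plec (chromosome 15, 76170974 to 76232574), plectin, the giant cross-linker that anchors desmin at Z-discs and the membrane, had 544, 458, 441 and 276 CPM (430 ± 112 CPM). Replicate 4 was the lowest. In CPM Plec exceeded Des, but Plec has 18113 bases of summed exon and Des 3754. Per kb, Des exceeded Plec by 1.62 ± 0.50 on the log2(CPM per kb + 1) scale in 4 of 4 libraries (exact sign-flip p = 0.125, adjusted 0.136, n = 4). With coding length the difference was 2.67, and without division by length the direction turned, to -0.60. The table gives 1 value per gene, so the many plectin isoforms, which differ in their first exons, are not resolved.

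The upstream sequences of Des and Synm, the most and the least abundant of the muscle filament genes here, are shown since their levels lay far apart. Both are the 250 bases before the RefSeq start on GRCm38.p6, 5′ to 3′ on the gene's strand, at chr1:75360042-75360291 (plus strand) and chr7:67759743-67759992 (minus strand). Capitals mark matches, on either strand, to the E-box CANNTG, the letters that myogenic bHLH factors such as Myod1 can bind, and to the Sp1 box GGGCGG. No marked matches overlap.
Des: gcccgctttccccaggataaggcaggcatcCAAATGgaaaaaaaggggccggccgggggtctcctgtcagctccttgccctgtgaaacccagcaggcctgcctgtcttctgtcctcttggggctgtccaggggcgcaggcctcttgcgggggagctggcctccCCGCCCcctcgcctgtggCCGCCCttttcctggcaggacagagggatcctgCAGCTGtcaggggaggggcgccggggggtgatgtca
Synm: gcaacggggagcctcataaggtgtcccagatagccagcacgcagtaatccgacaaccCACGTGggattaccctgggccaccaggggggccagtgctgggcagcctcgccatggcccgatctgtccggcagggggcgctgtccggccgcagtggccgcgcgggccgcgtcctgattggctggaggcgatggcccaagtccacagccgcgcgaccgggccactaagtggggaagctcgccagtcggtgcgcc
Des held 2 E-boxes and 2 Sp1 boxes, and Synm held 1 E-box. RefSeq windows were matched for 7 of the 9 genes, 9 windows in all. E-boxes were found in 5 of the 9 windows (of Des, Synm, Sync and Lmnb2), beside 66.2% of 32851 windows of the same length. Sp1 boxes were found in 5 of the 9, beside 32.7%. The 9 windows held 52.8 to 70.8% GC, beside a median of 52.4% over the 32851. GGGCGG consists of G and C only, so its 2 shares come from windows of unlike GC content. The letters TGGGAA, the core that the Notch cofactor Rbpj binds, were in 0 of the 9 windows, beside 21.6% of all windows. A match or its lack describes these letters in this window and says nothing of binding.

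Lamin transcripts were overwhelmingly of the A type. Lmna (chromosome 3, 88480147 to 88509956) encodes lamins A and C, which stiffen the nucleus and are known to increase as cells differentiate or sit in stiff tissue. It had 991, 1101, 917 and 729 CPM (935 ± 156 CPM), and ranked at position 100 of all genes by mean CPM. Its SD of 0.25 on the log2(CPM + 1) scale was the smallest of the 9. After the correction for GC content and length given below, that of Plec was smaller, at 0.15 against 0.16 for Lmna. Lamins A and C are splice forms of 1 gene and are not resolved in these values.

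The B-type lamins, which stay attached to the nuclear membrane through a lipid tail, were much lower. Lmnb2 (chromosome 10, 80901203 to 80918245) had 32.6, 45.2, 53.6 and 44.9 CPM (44.1 ± 8.64 CPM) and was lowest in replicate 1. Lmnb1 (chromosome 18, 56707813 to 56753424), whose loss is a known mark of senescent cells, had 18.1, 11.5, 12.2 and 8.93 CPM (12.7 ± 3.89 CPM) and was highest in replicate 1. These B-type genes thus had their extremes in opposite directions in replicate 1.

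Per kb of summed exon, Lmna made up 92.5, 92.9, 90.4 and 90.3% of the 3 lamin genes (91.5 ± 1.38%), and the level of Lmna was 9.26 to 13.1 times that of both B-type genes together. Lmna exceeded Lmnb1 by 4.94 ± 0.28 and Lmnb2 by 3.84 ± 0.40 on the log2(CPM per kb + 1) scale, each in 4 of 4 libraries. Lmnb2 exceeded Lmnb1 by 0.27, 1.24, 1.39 and 1.51 (mean 1.11 ± 0.57, 4 of 4 libraries), with a mean of 1.74 without division by length. For each of these the exact sign-flip test gave p = 0.125 (adjusted 0.136, n = 4). Beside them, the proliferation marker Mki67 had 3.36, 7.29, 3.14 and 6.30 CPM and the replication clamp Pcna 49.0, 90.1, 87.6 and 122 CPM. The 7 markers of cycling cells, all at 1 CPM or more in every library, summed to 102, 191, 138 and 178 CPM.

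**Figure D3:**
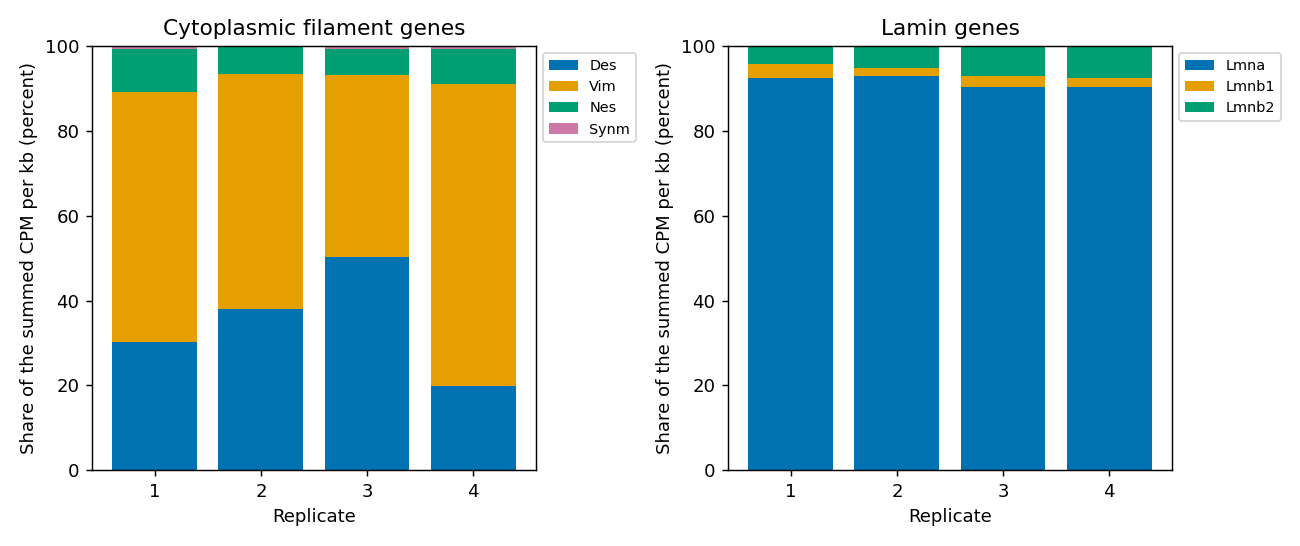
Share of each gene in the summed CPM per kb of 4 cytoplasmic filament genes (left) and of 3 lamin genes (right), for each replicate. Des ranges from 19.9 to 50.1% of the left pool, whereas Lmna holds 90.3 to 92.9% of the right one.

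The lamins share longer identical runs than desmin and vimentin do. The longest identical run, 30 bases, was that of Lmna and Lmnb2, and it was the longest among all pairs of the 9 coding sequences. Lmna was 65.7% identical to Lmnb2 over 1724 aligned bases and 64.0% to Lmnb1 over 1714, of a Lmna coding length of 1995 bases.

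Ordered by mean CPM per kb of summed exon, the genes ran Lmna (160.1 ± 26.8), Vim (129.8 ± 38.4), Des (80.9 ± 34.4), Sync (23.9 ± 11.5), Plec (23.7 ± 6.20), Nes (17.9 ± 7.74), Lmnb2 (10.3 ± 2.02), Lmnb1 (4.29 ± 1.31) and Synm (1.35 ± 0.639). Several neighbours were not separated by their spread. Vim minus Lmna was -0.33 ± 0.37 on the log2(CPM per kb + 1) scale, with -0.01 in replicate 1, negative in 4 of 4 libraries (exact sign-flip p = 0.125, adjusted 0.136, n = 4) and -0.16 without replicate 3. With coding length it was -0.12, negative in 2 of 4 libraries (exact p = 0.75, n = 4), and with the longest transcript's length -0.20, negative in 3 of 4 (exact p = 0.375, n = 4). Sync, Plec and Nes overlapped in CPM per kb, with ranges of 11.2 to 38.5, 15.2 to 30.1 and 12.2 to 28.8. Des minus Lmna was -1.10 ± 0.60 on the log2 scale in 4 of 4 libraries (the same p), and -1.75 without division by length. Lmnb2, Lmnb1 and Synm did not overlap with each other, with lowest and highest CPM per kb of 7.61 and 12.5, 3.01 and 6.12, and 0.578 and 2.14. Division by length assumes even coverage along a transcript, which a table of gene levels cannot show.

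**Figure D4:**
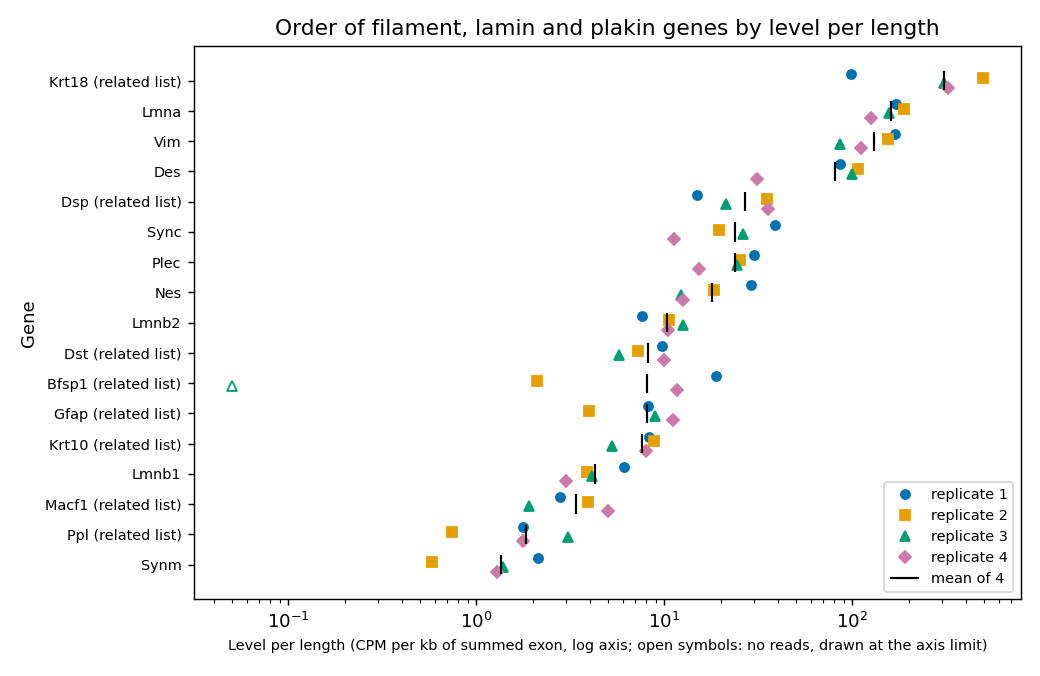
CPM per kb of summed exon (log axis) of the 9 genes and of genes that average at least 10 CPM from the lists of other filament, keratin and plakin genes, ordered by mean. Krt18 has the highest mean at 305 CPM per kb and Synm the lowest at 1.35 CPM per kb.

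Other filament genes were mostly low or without reads, apart from the keratin gene Krt18. Of 8 further cytoplasmic filament genes, 1 reached 1 CPM in all libraries, beside 53.6% of all genes. No read was found in any library for 4 of them, among them the neurofilament genes Nefl and Nefm. No read allows a level of up to 0.226 to 0.239 CPM per library, from a limit of 3 counts. Gfap, a type III filament gene of glia that is also reported in other tissues, had 34.6, 16.8, 37.4 and 47.0 CPM. Bfsp1, a lens filament gene, had 44.7, 5.04, 0 and 27.8 CPM, so its presence differed between libraries. Prph, peripherin of peripheral neurons, had 1.17, 0.977, 2.99 and 0.797 CPM. Beside Gfap, Sox10, a transcription factor of glial cells, had 97.1 to 151 CPM. The part of glial cells in the Gfap level was not tested.

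Of 11 keratin genes, 2 reached 1 CPM in all libraries, beside 53.6% of all genes, and 3 had no read. Krt18 (chromosome 15, 102028180 to 102032027), a type I keratin of simple epithelia, had 141, 711, 441 and 462 CPM (439 ± 233 CPM). Replicate 1 was far below the others. Per kb its mean of 305 ± 162 CPM per kb lay above the means of Lmna, Vim and Des, but in replicate 1 its 98.2 CPM per kb lay below Vim and Lmna, at 169 and 170 CPM per kb. Krt8, the type II keratin that normally pairs with Krt18 and is named here after its values were seen, had only 0.469, 1.13, 1.15 and 0.478 CPM. Krt10 had 17.4, 18.7, 11.1 and 16.9 CPM, and Krt1 had reads only in replicate 4, at 7.02 CPM.

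Among 6 other plakins, the linkers related to plectin, 4 reached 1 CPM in all libraries, beside 53.6% of all genes. Dst (dystonin) had 398, 298, 236 and 409 CPM and Macf1, which joins actin to microtubules, 87.6, 124, 59.6 and 157 CPM. Dsp, desmoplakin, known from desmosomes, had 145, 340.1, 206 and 342 CPM. None of these 3 was lowest in replicate 4, where Plec was lowest. Of all genes of at least 10 CPM, 31.3% had their minimum there, so none of 3 is near the background. The transcripts of Dst, Macf1 and Dsp hold 49.5, 46.9 and 51.8% GC, beside 61.3% for Plec, and these values are not corrected for GC. All 10 partners of desmin and plectin reached 1 CPM in all libraries, beside the same 53.6%, with a median of 209.5 CPM. Dag1, dystroglycan, had 2445, 2891, 2720 and 2300.0 CPM. The small heat shock gene Hspb1 had 1275, 618, 1126 and 892 CPM and the co-chaperone Bag3, which clears damaged filament proteins, 674, 481, 649 and 1012 CPM. Both are also known as heat shock response genes.

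The listed genes that hold and process lamins were all detected. All 8 inner nuclear membrane genes (median 51.2 CPM), all 5 LINC complex genes, which couple the lamina to the cytoskeleton (median 85.6 CPM), and all 5 lamin processing genes (median 53.6 CPM) reached 1 CPM in all libraries. So did 53.6% of all genes in the table. Tor1aip1, a lamin-binding membrane protein gene, had 70.0 to 112 CPM. Lbr, the lamin B receptor, had 86.8, 77.6, 50.1 and 76.8 CPM, and Banf1, a chromatin-bridging factor, 44.96 to 143 CPM, lowest in replicate 4. In the LINC complex Sun1 had 220.1, 122, 236 and 97.6 CPM, while the nesprin genes Syne2 and Syne1 had 119 to 173 and 76.0 to 102 CPM. Zmpste24, the protease that matures prelamin A, had 29.5, 30.7, 73.9 and 80.4 CPM, and was higher in replicates 3 and 4. The farnesyltransferase subunit Fnta had 206, 113, 296 and 311 CPM and Rce1, a protease of the same pathway, 31.3 to 96.3 CPM.

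The 9 genes were not an unusually variable set. None had an SD of 1 or more on the log2(CPM + 1) scale, a spread that 2.08% of the 9202 genes averaging at least 10 CPM reached, so a count of 0 among 9 is near the background. Their SDs ran from 0.25 (Lmna) to 0.83 (Des), with a median of 0.45 beside 0.62 over all such genes, and 3 of 9 (Des, Synm and Sync) lay above that median. Des, at the 85.5th percentile of SDs, was the most variable of them. After the correction for GC content and length given below, Synm was the most variable, with an SD of 0.71 against 0.59 for Des.

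Many of the 9 genes were highest in replicate 1 or lowest in replicate 4, but only 3 of 9 (Sync, Plec and Lmnb1) were both. Of the 9, 6 were highest in replicate 1 (Vim, Nes, Synm, Sync, Plec and Lmnb1), where 26.4% of all genes of 10 CPM or more had their maximum. Of the 9, 5 were lowest in replicate 4 (Des, Sync, Plec, Lmna and Lmnb1), where 31.3% of all such genes had their minimum. These libraries also lie at the ends of the GC trend, and the transcripts of the 9 genes range from 46.5% (Vim) to 61.3% GC (Plec). After a linear correction of each library for GC content and length, 6 of 9 were again highest in replicate 1 and 5 of 9 lowest in replicate 4, beside 25.6% and 25.4% of all genes. The corrected deviation of Plec in replicate 4 was -0.20 instead of -0.60, and its SD dropped to 0.15 from 0.42. For Des the deviation in replicate 4 was -0.83 instead of -1.23. Lmnb2 was the only one of the 9 with a higher SD past 1.5 times, at 0.50 instead of 0.29.

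**Figure D5:**
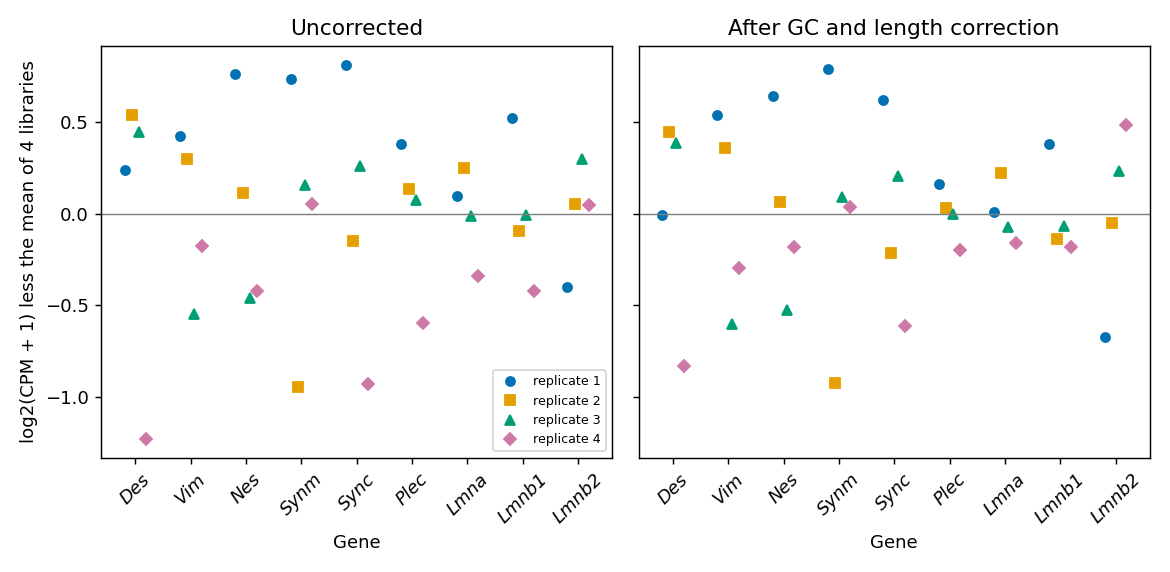
Deviation of log2(CPM + 1) from the mean of the 4 libraries for each gene, as measured (left) and after correction for GC content and length (right). Replicate 4 lies at -1.23 for Des on the left and -0.83 on the right, and the 4 values of Plec draw together.

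The profiles of the 9 genes over the 4 libraries were compared by the root mean square distance of log2(CPM + 1) centred on each gene's mean. Vim and Nes were 0.23 apart and Lmna and Plec 0.20, whereas Des was 0.74 from Vim and 0.70 from Nes. Over 9193 other genes the median distance was 0.65 to Vim, 0.70 to Nes, 0.85 to Des and 0.55 to Lmna. The nearest genes were Usp20, Gipc1 and Gnptg to Des (0.036 to 0.040), Csrp2, Adamtsl1 and Slc25a5 to Vim (0.029 to 0.042), Msra, Hmgxb3 and Dbi to Nes (0.027 to 0.069) and Rrm2, Szrd1 and Pgap4 to Lmna (0.031 to 0.042). With 4 libraries, 18 genes lay within 0.1 of Des, 24 of Vim, 26 of Nes and 60 of Lmna, so these names describe likeness over 4 values only.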

How the data were processed

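RNA of 4 libraries of 1 group was analysed. Per the labels' protocols, RNA from few cells was taken up in Buffer RLT, cDNA was amplified with a NEBNext low-input kit and libraries were built with Nextera XT. Trimmomatic 0.33, FastQC, featureCounts and edgeR, with the build mm10, were used per the submitters' processing notes, which give no order or settings. The authors deposited log2 CPM with a constant offset, as the values themselves show, and the lowest value was -4.19 in every library. Removing the offset (0.0548 CPM) gave whole reads for 100% of values, within a tolerance of 0.01 reads.

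Identifiers were matched to GENCODE M21 (21186 of 21264). Levels are recovered CPM, CPM per kb of summed exon, and log2 with a pseudocount of 1. The plan's test was kept: differences within libraries, exact two-sided sign-flip permutation over 16 sign assignments, Benjamini-Hochberg over 12 pairs. With 1 group, a count model has no contrast to test. Deviations were corrected by linear regression on GC content and log length of the longest transcript (9195 genes). Named genes are the 9 members, the 3 most abundant of each of 7 related lists, the 3 nearest profiles and 6 context genes. Any other gene named, such as Rbbp4, Krt8 or single markers, was chosen after its values were seen. Members and lists were chosen with earlier results of these data known. Markers of 10 cell types or states were set beside the members. The recovery and the SD were tested on simulated reads. Python 3.11.15, numpy 2.4.6, pandas 2.3.3, scipy 1.17.1 and Biopython 1.88 were used. Some sequences and marker genes are not reported here.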

Additional observations from a re-analysis of the deposited data

Results flagged for a closer look

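Of 29 quantities searched with Dixon's criterion for 1 library that stands away from the rest (the 9 genes, the 12 pair differences, the Lmna share and 7 list means), 1 was found. Synm minus Sync, on the log2(CPM per kb + 1) scale, was -2.42 in replicate 4, against -3.66, -3.71 and -3.51 in the others. Chance marks about 1 in 20 such groups. In replicate 4 Sync had its lowest level, 32.1 CPM, and its antisense neighbour Rbbp4 its highest, 391 CPM. The part of their shared exon bases in this value was not tested.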

How the results depend on the processing

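Over pseudocounts of 0.1 and 5, coding length, longest transcript length, no division by length and each library left out, 1 of 108 pair values turned its sign: Des minus Plec was -0.60 without division by length. In 11 of 12 pairs all 4 libraries had the same sign, which neither a pseudocount nor a left-out library could turn. For these pairs only the length settings could change the direction, so the count of 108 does not measure robustness. The Lmna share of lamin level was 93.7% with coding length, 93.2% with longest transcript length and 94.2% without division, and 91.1 to 91.9% with a library left out. Without a library, Des minus Vim ran from -1.10 to -0.42. The 54 alternative mean levels stayed within 1 SD, but this could hardly come out otherwise. Leaving out 1 of 4 libraries cannot move a mean by 1 SD. The other scalings changed levels little beside these SDs, with trimmed mean factors of 0.991 to 1.02. None of the 9 genes reached an SD of 1 under any setting run, and the SD of Des was 0.16 without replicate 4 and at most 0.998 without another library. The share of all genes with that SD ran from 0.619% (pseudocount of 5) to 8.50% (without replicate 2). Of other cytoplasmic filament genes, 2 instead of 1 passed with a minimum of 0.5 CPM, and 1 to 2 with a library left out. No paired analysis was possible because there is 1 group. With 4 libraries the smallest exact p is 0.125, and Synm in replicate 2 rests on 61 reads.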
